A study of Schizosaccharomyces pombe with 12 samples.

Results

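Transcript levels in the fission yeast Schizosaccharomyces pombe carrying asp1-H397A were compared with those of the wild type (WT), over all genes of the deposited count table. The comparison uses 6 of the series' 12 libraries, 3 of asp1-H397A and 3 of WT, and 6189 of the table's 6986 genes had enough counts to be tested. All strains were in vegetative log phase growth at 30 °C, in the yeast extract medium YES, and poly(A)+ RNA was sequenced with a kit that marks the strand. The other 6 libraries are of ssu72-C13S and of a triple mutant with both alleles and a deletion of aps1. They enter through the spread between replicates, the choice of genes tested and the scaling. They are also part of the mean of all libraries used below to remove a trend with adenine content. The labels give a single strain number for each genotype and speak of 3 replicate experiments, without saying whether these were separate cultures, so p-values measure only the spread between these libraries, which may be technical.

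Asp1 has a kinase domain that makes inositol pyrophosphates and a pyrophosphatase domain that removes them, and H397A is a change in the pyrophosphatase domain. Inositol pyrophosphates are signalling molecules of phosphate homeostasis. In fission yeast the phosphate acquisition genes pho1, pho84 and tgp1 each lie downstream of a non-coding RNA gene, and transcription across that gene into their promoters holds them down when phosphate is plentiful. The cleavage and polyadenylation machinery sets where the non-coding transcripts end.

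Total counts were 24979692, 27271529 and 25085517 in asp1-H397A replicates 1, 2 and 3, against 29124916, 26145253 and 23485996 in WT replicates 1, 2 and 3. A count of 0 allows up to 3 counts, which is 0.110 to 0.120 CPM in the asp1-H397A libraries and 0.103 to 0.128 CPM in the WT libraries, as a share of the total count. CPM (counts-per-million) are otherwise scaled by TMM, a factor for each library that assumes most genes do not differ. These limits cover counting error only.

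Replicate 3 of asp1-H397A stood apart from replicates 1 and 2. The chi-square of the counts per gene was 44.6 between replicates 1 and 3 and 53.5 between replicates 2 and 3, against 4.89 between replicates 1 and 2 and between 10.7 and 11.9 for pairs of WT libraries. All of these exceed the value near 1 that sampling noise gives, so no library was taken for a copy of another. The difference followed the adenine content of the spliced transcript, a property known for 6167 of the genes tested. Across those genes, the log2 level relative to the WT mean changed by -0.0879 and -0.0935 per percentage point of adenine in asp1-H397A replicates 1 and 2, but by -0.0136 in replicate 3. Each WT library set against the other WT libraries gave a slope of 0.0144, -0.0195 and 0.00507.

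Cut into 10 bins by adenine content, genes of the lowest bin (14.2 to 26.3% adenine) had a median log2 difference from WT of 0.33 and 0.38 in replicates 1 and 2 and of 0.11 in replicate 3. Genes of the highest bin (34.7 to 44.8%) had medians of -0.50 and -0.53 in replicates 1 and 2 and 0.06 in replicate 3. Because the spread between replicates 3 and 1 or 2 enters the tests, the counts over all genes and over each gene group are given with and without replicate 3, and also after the adenine trend of every library was removed relative to the mean of all libraries. That removal takes away any change of the genotype that itself follows adenine content.

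**Figure D1:**
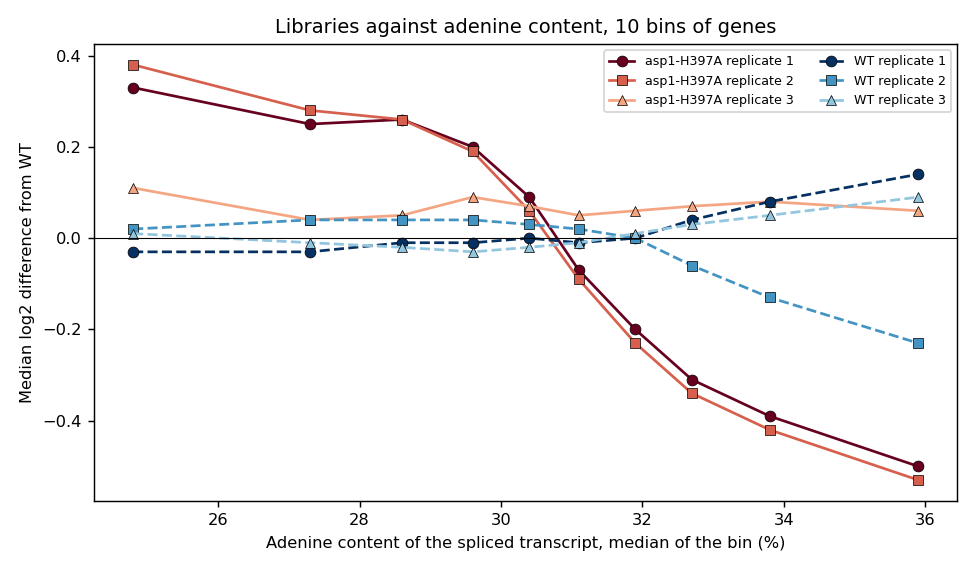
Median log2 difference (y axis) in each library for 10 bins of genes by adenine content of the spliced transcript (x axis, median of the bin, %). asp1-H397A libraries are set against the mean of the WT libraries and each WT library against the other WT libraries; replicates 1 and 2 of asp1-H397A fall from 0.33 and 0.38 in the lowest bin to -0.50 and -0.53 in the highest, while replicate 3 stays between 0.04 and 0.11.

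At an adjusted p under 0.05, 2747 of the 6189 genes differed between asp1-H397A and WT (44.4%), 1595 higher in asp1-H397A (25.8%) and 1152 lower (18.6%). A 2-fold change or more was reached by 417 genes (6.74%). Of these, 91 were higher (1.47%), 72 of them protein-coding, and 326 were lower (5.27%), of which 74 were protein-coding and 241 were non-coding RNA genes with an SPNCRNA identifier. The median level was 72.5 CPM for the 91 higher genes and 1.75 CPM for the 326 lower genes. The asp1-H397A libraries all lay above the WT libraries for 1767 genes (28.6%) and all below them for 1280 genes (20.7%), 3047 genes in either direction (49.2%). Under upper-quartile scaling the median of all genes moved to -0.15 on the log2 scale, and the calls became 934 higher and 1966 lower, so the balance between directions depends on the scaling.

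Without asp1-H397A replicate 3, 3999 of 6220 genes tested differed (64.3%), 1948 higher (31.3%) and 2051 lower (33.0%). Of the 2747 genes, 2664 were called in both fits, all in the same direction. The 930 genes called lower only without replicate 3 had a median adenine content of 33.2%, and the 395 called higher only without it one of 28.2%. Replicate 3 was the asp1-H397A library nearest to WT for 1281 of the 1595 higher genes (80.3%) and 729 of the 1152 lower genes (63.3%). With the adenine trend removed relative to all libraries, 1655 of the 6189 genes were higher and 1707 lower. Of the 417 genes past 2-fold, 405 were called in the same direction without replicate 3 and 411 after the adenine trend was removed. The part of base composition in any single result was not tested beyond these values.

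The mutated gene, asp1, had 76.0, 76.9 and 81.4 CPM in the asp1-H397A libraries, against 40.2, 41.5 and 42.1 CPM in the WT libraries, with a log2 fold change of 0.92 ± 0.0640 (SE) and an adjusted p of 2.11e-07. The groups did not overlap. A count per gene does not show which allele was transcribed, so these values do not check the labels. On the opposite strand of asp1, the non-coding SPNCRNA.1144 had 11.7, 11.8 and 11 CPM in asp1-H397A, against 0.762, 0.809 and 0.504 CPM in WT, with a log2 fold change of 4.04 ± 0.171 (SE) and an adjusted p of 3.09e-09. Whether the counting used the strand is not given in the sources used here, so reads of overlapping genes on opposite strands cannot be told apart.

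The 10 neighbours of asp1, of which 8 were tested, held 4 that rose and 1 that fell, where 25.8% of all genes tested rose and 18.6% fell. Both without replicate 3 and with the adenine trend removed, 5 were higher and 1 lower. Beside SPNCRNA.1144, SPNCRNA.1143 rose by a log2 fold change of 0.87 and yrs1, which overlaps asp1 on the same strand, by 0.63. Both were higher in every asp1-H397A library: yrs1 had 250, 251 and 231 CPM in asp1-H397A, against 146, 164 and 163 CPM in WT. Reads of yrs1 and asp1 may be shared. The guanine deaminase gene gud1 had 71.6, 72.9 and 72.7 CPM in asp1-H397A, against 96.1, 105 and 104 CPM in WT, and its log2 fold change was -0.49 (adjusted p = 1.40e-05).

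The genes mutated in the other strains were intact here by genotype. The deleted gene of the triple mutant, aps1, which encodes another inositol pyrophosphate pyrophosphatase, had 108, 102 and 107 CPM in asp1-H397A, against 116, 120 and 102 CPM in WT, and did not pass the test (log2 fold change -0.09, adjusted p = 0.297). The phosphatase gene ssu72 had 19.9, 19.6 and 28.0 CPM in asp1-H397A, against 14.4, 15.1 and 15.7 CPM in WT, and its log2 fold change was 0.58 ± 0.143 (SE, adjusted p = 0.00502). The groups did not overlap for ssu72, and replicate 3 was its highest library.

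Phosphate acquisition genes were higher in asp1-H397A, and with the 3 libraries together their median log2 fold change was the highest of the lists, while that of flocculins and adhesins was higher without replicate 3 (0.97 against 0.94) and with the adenine trend removed (0.57 against 0.54). Of 9 listed genes, 6 rose and 2 fell, with a median log2 fold change of 0.88 against -0.00 for all genes tested. The shares over all genes tested were 25.8% higher and 18.6% lower, or 31.3% and 33.0% without replicate 3. The transporter gene tgp1, whose product takes up glycerophosphodiesters, had 423, 416 and 357 CPM in asp1-H397A, against 19.9, 18.3 and 18.6 CPM in WT. Its log2 fold change of 4.39 ± 0.0943 (SE), at an adjusted p of 1.79e-12, was the highest of all genes tested. The gene overlaps SPBC1271.10c on the opposite strand.

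The acid phosphatase gene pho1 had 13216, 13543 and 10815 CPM in asp1-H397A, against 2107, 2054 and 2189 CPM in WT, with a log2 fold change of 2.56 ± 0.116 (SE) and an adjusted p of 3.66e-09. The phosphate transporter gene pho84 had 4675, 4891 and 3920 CPM in asp1-H397A, against 991, 1038 and 1066 CPM in WT, with a log2 fold change of 2.12 ± 0.101 (SE) and an adjusted p of 6.16e-09. In both genes replicate 3 was the lowest asp1-H397A library, and it still lay several-fold above every WT library. The non-coding prt2, which lies upstream of pho84 and overlaps it on the same strand, went the other way, with 11.4, 12.1 and 12.2 CPM in asp1-H397A, against 33.7, 32.5 and 32.1 CPM in WT. Its log2 fold change was -1.46 ± 0.0776 (SE, adjusted p = 1.51e-08), and every asp1-H397A library lay far below every WT library. Reads of prt2 and pho84 may be shared.

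A further phosphate transporter gene, pho842, rose by 0.88 on the log2 scale. The gene ecl3, named for extended chronological lifespan, had 41.4, 41.2 and 33.5 CPM in asp1-H397A, against 5.43, 6.16 and 5.70 CPM in WT, a log2 fold change of 2.75. The transcription factor gene pho7, whose product activates phosphate genes, rose by 0.34, and the kinase gene csk1 fell by 0.65 on the log2 scale. The kinase gene pef1 missed the threshold at 0.22 (adjusted p = 0.0563). The median adenine content of the list was 26.7%. With the adenine trend removed its median was 0.54, with the same counts of 6 higher and 2 lower, and without replicate 3 it was 0.94, with 7 higher and 2 lower.

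**Figure D2:**
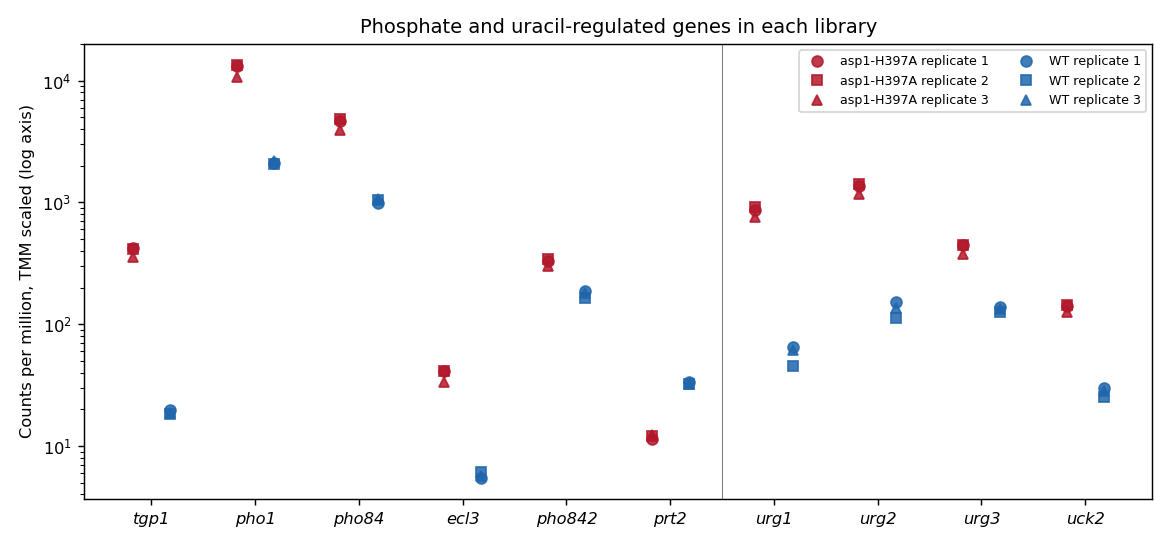
CPM scaled by TMM (y axis, log scale) of 6 phosphate and 4 uracil-regulated genes (x axis) in each library, asp1-H397A in red left of WT in blue, one symbol for each replicate. The red points lie above the blue ones for every gene shown except prt2, where they lie below.

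Among 11 genes of inositol pyrophosphate and polyphosphate metabolism, 8 rose and 1 fell, beside 25.8% and 18.6% of all genes tested. Their median log2 fold change was 0.25. The polyphosphate polymerase complex genes vtc4 and vtc2 rose: vtc4 had 296, 286 and 251 CPM in asp1-H397A, against 140, 142 and 129 CPM in WT, with a log2 fold change of 1.02 ± 0.0816 (SE) and an adjusted p of 6.87e-07. For vtc2 the log2 fold change was 0.83. The glycerophosphodiesterase gene gde1 rose by 0.70 and the inositol pyrophosphatase gene siw14 by 0.41. The inositol hexakisphosphate kinase gene kcs1 rose by 0.17, and the inositol polyphosphate kinase gene arg82 fell by 0.31 on the log2 scale. Neither passed the test with the adenine trend removed (kcs1 at 0.06, arg82 at -0.13), and kcs1 did not under upper-quartile scaling (0.03) or by DESeq2. Without replicate 3, 8 members were higher and 2 lower, beside 31.3% and 33.0% of all genes. After removal of the adenine trend 5 members were higher and 0 lower, with a median of 0.09.

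Of 18 cleavage and polyadenylation factor genes, 5 rose and 1 fell, close to the 25.8% of all genes that rose and below the 18.6% that fell. Their median was 0.10, or -0.04 under upper-quartile scaling. Without replicate 3, 6 were higher and 3 lower, where 31.3% of all genes were higher and 33.0% lower. With the adenine trend removed 9 were higher and 3 lower. Besides ssu72, swd22 and rna15 rose by 0.35 each and ctf1 and cft1 by 0.29 each (0.15 and 0.14 under upper-quartile scaling, where neither passed the test), and pta1 fell by 0.20 on the log2 scale. Of 19 termination and polymerase tail genes, 8 rose and 0 fell by the quasi-likelihood test of edgeR, with a median of 0.02 that was -0.13 under upper-quartile scaling. At an unadjusted p under 0.05, 2 were lower, and DESeq2 called 1 lower. The termination factor gene seb1 had 176, 163 and 134 CPM in asp1-H397A, against 108, 102 and 105 CPM in WT, a log2 fold change of 0.59. The largest polymerase subunit gene rpb1 rose by 0.40 and the termination factor gene rhn1 by 0.39. For rhn1 the test was not passed under upper-quartile scaling (0.24, adjusted p = 0.141), nor when asp1-H397A replicate 3 (0.23, adjusted p = 0.0554), WT replicate 1 (0.35) or WT replicate 3 (0.34) was left out. Without replicate 3, 6 members were lower beside the 8 higher, and the 6 are near the 33.0% of all genes that were lower in that fit. With the adenine trend removed 6 were higher and 1 lower.

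Uracil-regulated genes also rose. Over all genes tested 25.8% rose and 18.6% fell, or 31.3% and 33.0% without replicate 3. Of 11 listed genes 10 were tested, 7 rose and 0 fell (edgeR's quasi-likelihood test; 0 also at an unadjusted p under 0.05 and by DESeq2), with a median log2 fold change of 0.51. Chosen after its values were seen, ura4 is the untested one, with 0 counts in all 6 libraries, which allows up to 0.128 CPM. The gene urg1, whose product resembles GTP cyclohydrolase II, had 872, 922 and 761 CPM in asp1-H397A, against 64.5, 45.0 and 61.9 CPM in WT. Its log2 fold change was 3.90 ± 0.200 (SE, adjusted p = 1.13e-08). The uracil phosphoribosyltransferase gene urg2 had 1360, 1410 and 1184 CPM in asp1-H397A, against 152, 113 and 136 CPM in WT, with a log2 fold change of 3.30 ± 0.190 (SE) and an adjusted p of 3.24e-08. Both were among the largest rises, which were picked on condition that the groups did not overlap.

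In gene order along chromosome I, urg2, urg3 and urg1 are consecutive, and uck2 lies 3 places further on. For urg3, asp1-H397A had 449, 444 and 376 CPM, against 139, 127 and 133 CPM in WT, a log2 fold change of 1.67. For uck2, the values were 142, 143 and 127 CPM in asp1-H397A, against 29.8, 25 and 28.1 CPM in WT, a log2 fold change of 2.31. Every asp1-H397A library was above every WT library in both, which for uck2 was a condition of its choice among the largest rises. Among the pyrimidine synthesis genes ura1 rose by 0.51 and ura2 by 0.23 (0.08, not past the test, with the adenine trend removed), and ura3 and ura5 did not pass the test (-0.07 and 0.10). The uracil permease gene fur4 did not pass either (0.10, adjusted p = 0.348). Median adenine content was 26.3%, and after removal of the trend 6 members were higher and 2 lower with a median of 0.41, while without replicate 3 there were 8 higher and 0 lower.

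**Figure D3:**
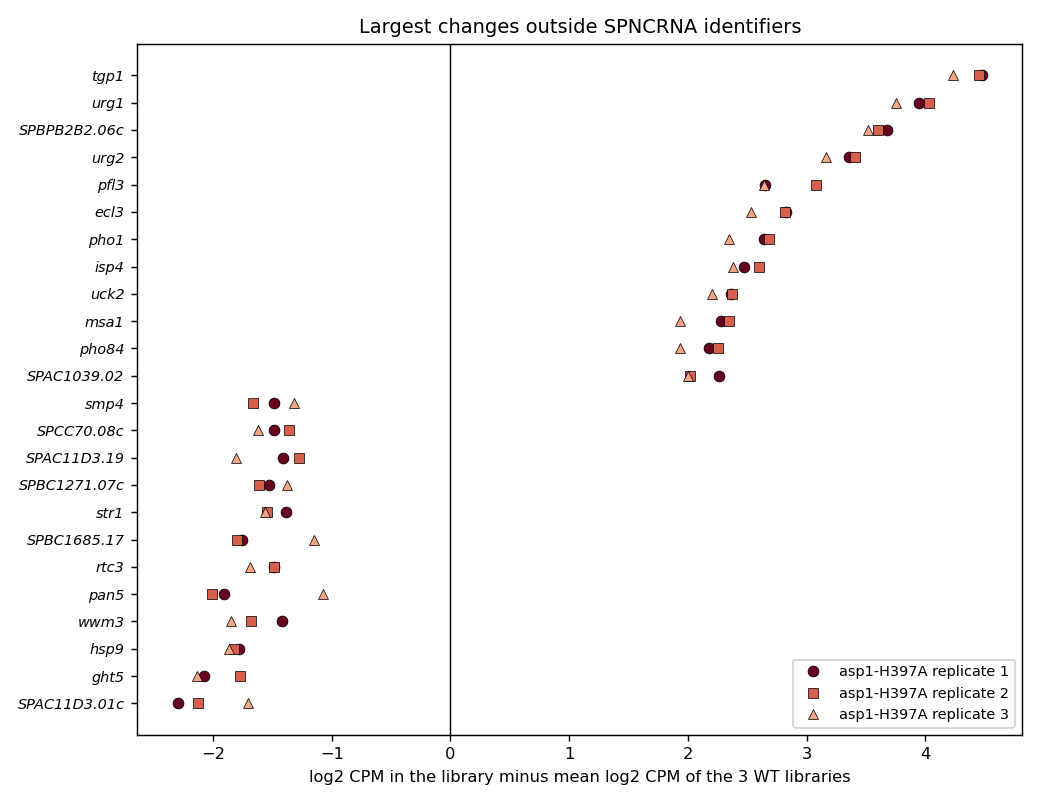
The 12 largest rises and 12 largest falls among genes outside the SPNCRNA identifiers that averaged at least 5 CPM, passed the test and had groups that did not overlap. Points are the log2 CPM of each asp1-H397A library minus the mean log2 CPM of the WT libraries (x axis), one symbol for each replicate; in pan5 replicate 3 lies at -1.07 and the other replicates at -1.91 and -2.01.

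The largest rises outside these groups included SPBPB2B2.06c, with 165, 157 and 149 CPM in asp1-H397A, against 11.5, 14.1 and 13.1 CPM in WT (log2 fold change 3.61). It lies near an end of chromosome II. The oligopeptide transporter gene isp4 had 400, 437 and 376 CPM in asp1-H397A, against 70.5, 64.4 and 82.6 CPM in WT (log2 fold change 2.48). The RNA-binding protein gene msa1 rose by 2.20, and SPAC1039.02 had 1583, 1343 and 1326 CPM in asp1-H397A, against 358, 317 and 319 CPM in WT. Among the largest falls, the high-affinity glucose transporter gene ght5 had 61.2, 75.9 and 58.5 CPM in asp1-H397A, against 253, 251 and 271 CPM in WT, with a log2 fold change of -1.99 ± 0.0998 (SE) and an adjusted p of 1.01e-08. The stress protein gene hsp9 had 193, 188 and 181 CPM in asp1-H397A, against 659, 704 and 628 CPM in WT, a log2 fold change of -1.82. That the asp1-H397A libraries were all below the WT libraries was a condition for picking the largest falls.

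Several of the lower genes are less well known. SPAC11D3.01c fell furthest of these, by 2.05 on the log2 scale, and had 3.21, 3.61 and 4.84 CPM in asp1-H397A, against 16.4, 14.5 and 17.4 CPM in WT. The genes wwm3, rtc3, SPBC1685.17, SPBC1271.07c, SPAC11D3.19, SPCC70.08c and smp4 fell by between 1.49 and 1.65 on the log2 scale. In pan5, which by its name encodes a ketopantoate reductase, replicate 3 had 33.4 CPM and the other asp1-H397A libraries 18.5 and 17.4 CPM, against 71.2, 64.6 and 75 CPM in WT.

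Glycolysis and fermentation genes rose together in count: of 19 listed genes 18 were tested, 16 rose and 2 fell, with a median log2 fold change of 0.74. Among all genes tested 25.8% rose and 18.6% fell, or 31.3% and 33.0% without replicate 3. The main enolase gene eno101 had 6837, 6677 and 5728 CPM in asp1-H397A, against 2146, 2175 and 2260 CPM in WT, with a log2 fold change of 1.55 ± 0.0845 (SE) and an adjusted p of 1.90e-08. The glyceraldehyde-3-phosphate dehydrogenase genes gpd3 and tdh1 rose by 1.43 and 1.33, the aldolase gene fba1 by 0.85, the phosphofructokinase gene pfk1 by 0.80 and the alcohol dehydrogenase gene adh1 by 0.75. The 2 that fell were a second enolase gene, eno102, by 1.32 and adh4, which encodes another alcohol dehydrogenase, by 0.68 on the log2 scale. Replicate 3 had a median of 0.58, against 0.77 and 0.84 in replicates 1 and 2. Median adenine content was 23.6%, and with the trend removed 14 rose and 2 fell with a median of 0.34. Without replicate 3, where all 19 were tested, the counts were 16 and 2.

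Cell surface genes rose likewise. The list of flocculins and adhesins held 11 genes, among them the transcription factor genes mbx2 and cbf12. Of the 11, 10 rose and 0 fell by edgeR's quasi-likelihood test, with 0 lower at an unadjusted p under 0.05 and by DESeq2. Their median was 0.75, and after removal of the adenine trend 9 were higher and 0 lower with a median of 0.57. Without replicate 3 all 11 were higher. The shares over all genes tested were 25.8% higher and 18.6% lower, or 31.3% and 33.0% without replicate 3. The flocculin gene pfl3 had 253, 342 and 251 CPM in asp1-H397A, against 39.5, 40.5 and 40.7 CPM in WT, with a log2 fold change of 2.81 ± 0.126 (SE) and an adjusted p of 3.66e-09. pfl8 rose by 1.97 and the flocculin gene gsf2 by 1.32. The transcription factor gene mbx2, which activates flocculation in this yeast, had 50.3, 55.1 and 47.4 CPM in asp1-H397A, against 19.6, 21.5 and 19.7 CPM in WT (log2 fold change 1.33). In each of these 4 genes every asp1-H397A library was above every WT library, which for pfl3 was a condition of its choice.

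Of 21 genes of cell wall synthesis and remodelling, 16 rose and 1 fell, beside 25.8% and 18.6% of all genes, with a median of 0.56. The glucanase gene eng1, whose product splits the septum, rose by 1.41, with 890, 879 and 807 CPM in asp1-H397A, against 334, 300 and 335 CPM in WT. The glucanosyltransferase gene gas1 rose by 1.00, the glucanase genes exg3 and exg1 by 0.97 and 0.91, and the glucan synthase genes bgs1 and ags1 by 0.56 and 0.61. The glucanase gene eng2 fell by 0.21 on the log2 scale, and by 0.15 without replicate 3, where it did not pass the test, nor did it by DESeq2. Median adenine content was 25.9%, and removal of the trend gave 13 higher, 2 lower and a median of 0.30. Without replicate 3, 16 were higher and 0 lower, beside 31.3% and 33.0% of all genes.

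Iron genes went both ways. Over all genes tested 25.8% rose and 18.6% fell, or 31.3% and 33.0% without replicate 3. Of 13 listed genes 5 rose and 5 fell, and the median was -0.02. The counts were 5 and 5 without replicate 3, and 5 higher and 6 lower with the adenine trend removed. Among genes of high-affinity iron uptake, the ferric reductase gene frp1 had 2.08, 1.99 and 1.99 CPM in asp1-H397A, against 5.31, 5.91 and 6.05 CPM in WT, a log2 fold change of -1.51. The permease gene fip1 fell by 1.10, the multicopper oxidase gene fio1 by 1.08 and the siderophore transporter gene str1 by 1.52 on the log2 scale. The transporter gene str3 had 0, 1 and 1 counts in asp1-H397A, against 10, 7 and 14 counts in WT (adjusted p = 0.00820). Neither genotype alone had enough counts, and libraries of the other genotypes were needed to test it. Of asp1-H397A and WT, only WT added to passing the filter, so the fall of str3 may be in part selected. The siderophore synthesis genes sib1 and sib2, the transporter gene str2 and the regulator genes fep1 and php4 rose, by 0.39, 0.43, 0.44, 0.35 and 0.45. Of 8 copper and zinc genes, 2 rose and 1 fell: the zinc transporter gene zrt1 by 0.89, loz1 by 0.40, and the metallothionein gene zym1 fell by 0.53. Their median of 0.16 was -0.01 after removal of the adenine trend, with 2 higher and 3 lower, and without replicate 3 there were 5 higher and 1 lower.

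Nutrient-related lists were mixed. The shares over all genes tested were 25.8% higher and 18.6% lower, or 31.3% and 33.0% without replicate 3. Of 15 nitrogen source and amino acid uptake genes, 7 rose and 1 fell with a median of 0.15, which became -0.18 with 4 higher and 7 lower after removal of the adenine trend, while without replicate 3 the counts stayed at 7 and 1. Beside isp4, the peptide transporter gene ptr2 rose by 0.77 and the glutamate dehydrogenase gene gdh1 fell by 0.54 on the log2 scale. Of 8 thiamine-repressed genes, 5 rose and 1 fell with a median of 0.27, and only 1 was higher and 2 lower after the removal, with a median of 0.01, against 5 higher and 1 lower without replicate 3. Their largest rise was pho4, a thiamine-repressible acid phosphatase gene, at 0.58. Of 14 hexose transport and glucose-repressed genes, 4 rose and 3 fell. Beside ght5, the malic enzyme gene mae2 rose by 0.99, the malate permease gene mae1 and the hexose transporter gene ght2 by 0.95 each, and the fructose-bisphosphatase gene fbp1 by 0.81. The median of that list was 0.03 and it was -0.28 after the removal, with 4 higher and 6 lower, and without replicate 3 there were 5 higher and 3 lower.

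Stress and sexual differentiation genes went both ways. Of all genes tested 25.8% rose and 18.6% fell, or 31.3% and 33.0% without replicate 3, and several counts here are near these shares. Of 16 environmental stress genes 5 rose and 5 fell, with 7 and 5 without replicate 3 and 5 and 8 with the adenine trend removed. The gene rds1 rose by 1.03 and the glycerol-3-phosphate dehydrogenase gene gpd1 by 0.73, while hsp9 and the sulfiredoxin gene srx1 fell, srx1 by 0.67. Of 15 heat shock and chaperone genes 5 rose and 3 fell, with 7 and 5 without replicate 3 and 4 and 5 with the trend removed. The Hsp70 genes ssa2 and ssa1 went opposite ways, ssa2 by 0.91 and ssa1 by -0.63, with ssa2 at 7959, 8110 and 6579 CPM in asp1-H397A, against 3983, 4069 and 4041 CPM in WT. Of 21 pheromone and mating genes 5 rose and 5 fell, and those that fell included the cell fusion gene fus1 (-0.96), the pheromone gene map2 (-0.79) and the meiotic regulator gene mei2 (-0.70). Without replicate 3, 8 were higher and 4 lower, and with the trend removed 4 were higher and 9 lower.

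Cell cycle, meiotic and chromatin lists differed. A list for the G1/S transcription factor MBF held 15 genes, its targets together with genes of the factor itself (cdc10, res1, res2 and rep2). Of these, 10 rose and 0 fell by edgeR's quasi-likelihood test, and 0 were lower at an unadjusted p under 0.05 or by DESeq2. Their median was 0.30. Among all genes tested 25.8% rose and 18.6% fell, or 31.3% and 33.0% without replicate 3. tos4 rose by 1.00, the replication licensing gene cdc18 by 0.91, cdt2 by 0.79, the cyclin gene cig2 by 0.70 and the ribonucleotide reductase gene cdc22 by 0.60. The list's median adenine content of 31.1% was close to the 30.8% of all genes, and with the trend removed 12 were higher and 0 lower with a median of 0.35. Without replicate 3, 9 were higher and 0 lower. Of 12 meiotic genes controlled by Mmi1, 4 rose and 0 fell by edgeR's test, with 0 lower at an unadjusted p under 0.05 and by DESeq2 and a median of 0.32, where 25.8% of all genes rose. Without replicate 3 the counts were 4 and 0, and with the adenine trend removed 5 and 0. The largest of these was spo5, with 2.38, 1.74 and 1.75 CPM in asp1-H397A, against 0.701, 0.739 and 0.543 CPM in WT (log2 fold change 1.55).

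Of 10 histone genes 1 rose and 0 fell by edgeR's quasi-likelihood test, with 1 lower at an unadjusted p under 0.05 and 0 by DESeq2. With the adenine trend removed 0 were higher and 8 lower (median -0.30), under upper-quartile scaling 0 and 3, and without replicate 3, 2 were higher and 0 lower. The H2B gene htb1 rose by 0.23, but was at 0.01 (adjusted p = 0.865) with the trend removed and at 0.09 (adjusted p = 0.273) under upper-quartile scaling. It also missed the test without asp1-H397A replicate 1 (0.23), asp1-H397A replicate 2 (0.21) or WT replicate 2 (0.20), and near-identical copies make histone counts uncertain. Of 16 heterochromatin and RNAi genes 4 rose and 1 fell, beside 25.8% and 18.6% of all genes. The histone methyltransferase gene clr4 rose by 0.66 and raf2 fell by 0.48. Without replicate 3 the counts were 5 higher and 7 lower, beside 31.3% and 33.0% of all genes, and with the trend removed 5 and 1. Of 19 nuclear exosome and Mmi1 genes only mmi1 rose (0.43), and 0 fell by edgeR, with 3 lower at an unadjusted p under 0.05 and 3 by DESeq2. Without replicate 3, 2 were higher and 10 lower with a median of -0.29, and with the trend removed 1 was higher and 2 lower. Tf2 retrotransposon genes, of which 4 of 13 were tested, all fell by between 0.91 and 2.00, and reads of their near-identical copies cannot be assigned with certainty. The fall of 2.00 was that of Tf2-6, with 3, 2 and 1 counts in asp1-H397A. Neither asp1-H397A nor WT alone had enough counts, and libraries of the other genotypes were needed to test it. Of asp1-H397A and WT, only WT added to passing the filter, so the fall of Tf2-6 may be in part selected. All 4 were also lower without replicate 3 and with the trend removed. For Tf2-11, asp1-H397A had 0.780, 1.01 and 1.79 CPM, against 3.14, 2.25 and 4.27 CPM in WT.

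**Figure D4:**
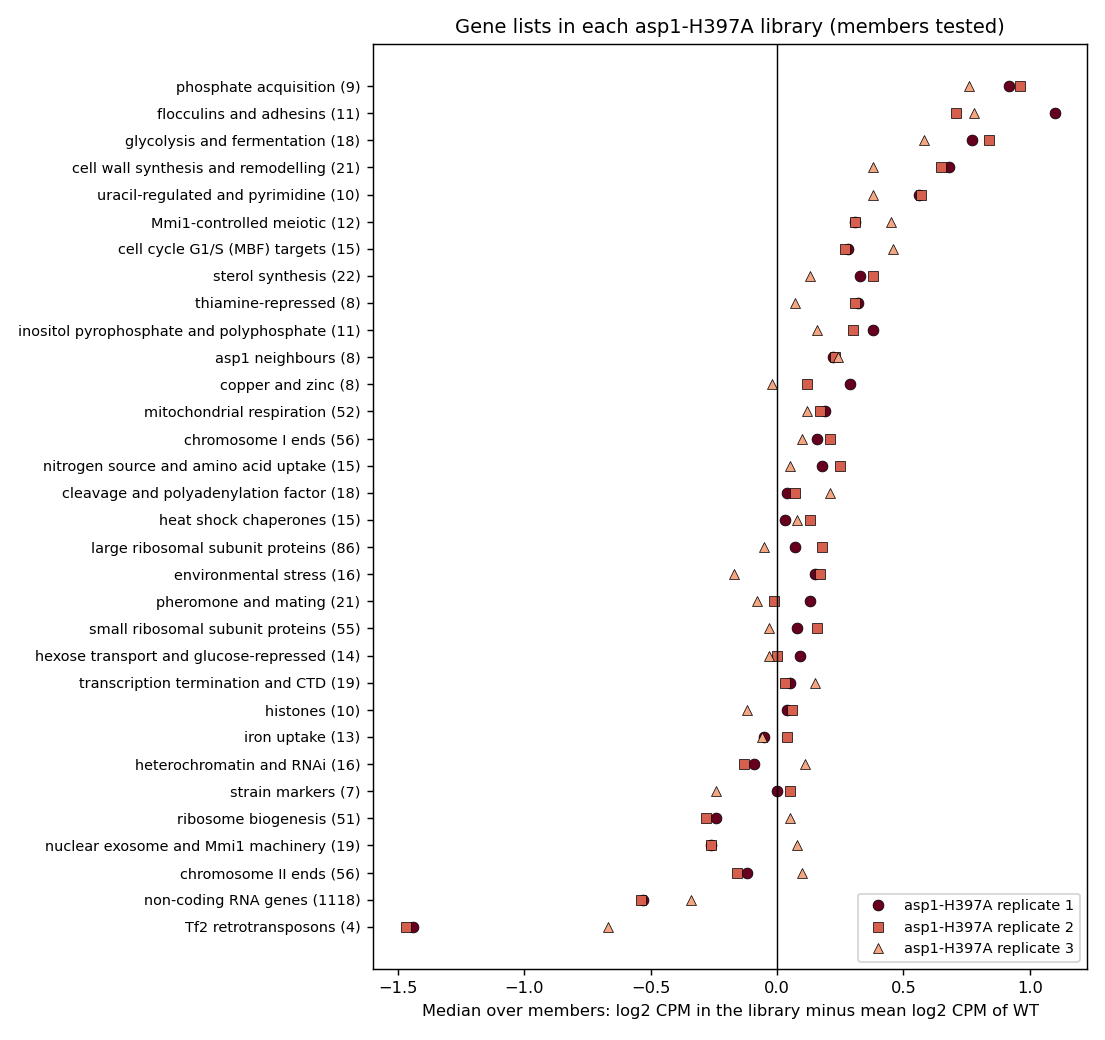
Median over the tested members of each gene list (y axis, number tested in brackets) of log2 CPM in a library minus the mean log2 CPM of WT (x axis), for each asp1-H397A library. Phosphate acquisition, flocculins and glycolysis lie right of 0 in all 3 libraries, and Tf2 retrotransposons and non-coding RNA genes left of 0 in all 3; replicate 3 lies right of 0 and the other replicates left of it for ribosome biogenesis, with 0.05, -0.24 and -0.28.

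Ribosomal protein genes showed no common shift that held across settings. Among all genes tested 25.8% rose and 18.6% fell, or 31.3% and 33.0% without replicate 3. Of 55 small subunit genes 10 rose and 4 fell, with a median of 0.06 that was -0.18 with the adenine trend removed and -0.09 under upper-quartile scaling. Of 86 genes selected by large subunit names, a rule that also takes the RNase P subunit genes, 19 rose and 10 fell, with a median of 0.07 that was -0.18 with the trend removed and -0.07 under upper-quartile scaling. Removal of the trend gave 8 higher and 37 lower small subunit genes, and 7 higher and 60 lower in the large subunit list. Without replicate 3 these were 18 higher and 7 lower, and 28 higher and 13 lower. Single paralogues moved further: rps1401 rose by 0.88 and rpl1602 by 0.81, with 1956, 2003 and 1626 CPM in asp1-H397A, against 1097, 1088 and 993 CPM in WT. Reads of paralogues can be shared, so these are uncertain. Of 51 ribosome biogenesis genes 9 rose and 13 fell with a median of -0.12, with 9 higher and 27 lower without replicate 3 and 14 higher and 19 lower with the trend removed.

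Mitochondrial respiration genes had 17 of 52 higher and 2 lower, beside 25.8% and 18.6% of all genes, with a median of 0.16 that was 0.01 under upper-quartile scaling (7 higher, 7 lower). Without replicate 3 there were 27 higher and 10 lower, and with the adenine trend removed 14 and 6. The ATP synthase gene atp1 rose by 0.65 and the cytochrome genes qcr2 and cyt1 by 0.58 and 0.57. Of 22 sterol synthesis genes 16 rose and 1 fell, with a median of 0.28, but 8 were higher and 3 lower with the adenine trend removed (median 0.03) and 19 higher and 2 lower without replicate 3. The squalene epoxidase gene erg1 rose by 1.15, with 539, 553 and 408 CPM in asp1-H397A, against 227, 214 and 234 CPM in WT, and spo9 fell by 0.38. Genes used as strain markers had 1 of 7 tested higher and 2 lower, with arg3 at -0.60, his3 at -0.39 and his7 at 0.16. The his7 call was not made by DESeq2, under upper-quartile scaling (0.02) or with any 1 library other than asp1-H397A replicate 3 left out, and his7 was at -0.03 with the adenine trend removed. Without replicate 3, 2 were higher and 2 lower, and with the trend removed 0 were higher and 5 lower. The 4 mating-type cassette genes had too few counts to test.

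Genes near chromosome ends are set beside all genes tested, of which 25.8% rose and 18.6% fell, or 31.3% and 33.0% without replicate 3. Of 80 listed genes of chromosome I 56 were tested, 19 rose and 11 fell. At chromosome II 56 of 80 were tested, 19 rose and 18 fell. Without replicate 3 these were 21 and 14 at chromosome I, where 60 were then tested, and 20 and 21 at chromosome II. With the trend removed they were 20 and 15, and 19 and 19. Those of chromosome II had medians of -0.12 in replicate 1, -0.16 in replicate 2 and 0.10 in replicate 3. The gene cmt2 had 0.173, 0.487 and 0.596 CPM in asp1-H397A, against 6.10, 6.12 and 5.74 CPM in WT, a log2 fold change of -3.80 (adjusted p = 9.67e-08). Its counts of 4, 12 and 15 in asp1-H397A alone were too few for the test, while WT, where it was higher, had enough. The fall of cmt2 was thus in part selected. The phosphate transporter gene pho841 had 388, 403 and 360 CPM in asp1-H397A, against 157, 159 and 163 CPM in WT, and its log2 fold change was 1.26. At chromosome I, SPAC212.08c rose by 2.48 and gdt1 by 2.25, while str3 was at -3.49 and SPAC11D3.01c at -2.05. Counts were low in SPAC212.08c, with 41, 30 and 43 in asp1-H397A, against 5, 6 and 13 in WT. The WT libraries alone had too few for the test and asp1-H397A had enough, so this rise was in part selected. Counts of gdt1 were 83, 93 and 57 in asp1-H397A, against 14, 30 and 14 in WT.

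Non-coding RNA genes were called lower more often than higher. Of 1524 genes with an SPNCRNA identifier 1118 were tested, 65 rose and 531 fell, with a median log2 fold change of -0.48, against 0.05 for the 4987 protein-coding genes, of which 1512 rose and 606 fell. The median was -0.53, -0.54 and -0.34 in asp1-H397A replicates 1, 2 and 3. With the adenine trend removed 102 rose and 534 fell (median -0.40), and under upper-quartile scaling 42 rose and 655 fell. Without replicate 3, where 1135 were tested, 72 rose and 612 fell. Their share of all counts averaged 0.996% ± 0.0495 in asp1-H397A and 1.25% ± 0.0600 in WT (SD, n = 3 each).

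Low level went with larger falls in non-coding genes. In coding genes this broadly held in replicates 1 and 2, while replicate 3 had a median below 0 only under 3 CPM. Non-coding genes averaging 1 to 3 CPM had a median of -0.63 (282 genes), against -0.32 for 101 protein-coding genes of the same range. At 10 to 30 CPM the medians were -0.28 for 175 non-coding genes and -0.05 for 745 protein-coding genes. Those coding genes had medians of -0.17, -0.21 and 0.16 in asp1-H397A replicates 1, 2 and 3, and of -0.19 in the fit without replicate 3. At 30 CPM or more they were -0.12 for 51 non-coding genes and 0.09 for 3838 protein-coding genes. Median adenine content also differed, from 33.0% under 1 CPM to 30.3% at 30 CPM or more in non-coding genes. In coding genes it was 32.5% at 10 to 30 CPM and 29.9% at 30 CPM or more. The parts of depth and of adenine content in this were not tested. Non-coding genes that overlap another gene on the opposite strand (913, of which 44 rose and 456 fell) and those that overlap no other gene (159, of which 13 rose and 62 fell) each had a median of -0.49. The 35 that overlap a gene on the same strand and none on the opposite strand had a median of -0.25, with 5 higher and 10 lower.

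**Figure D5:**
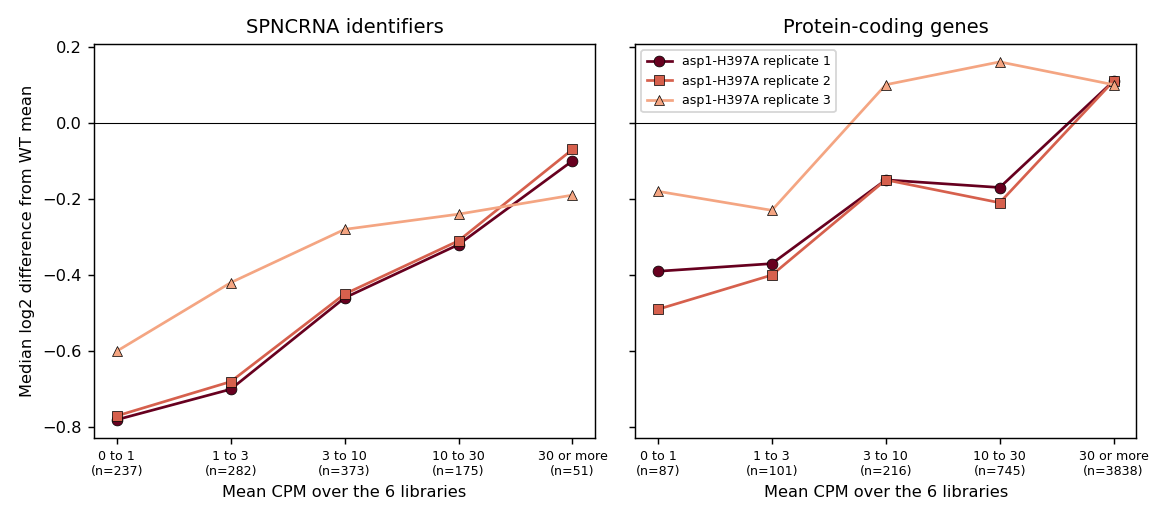
Median log2 difference from the WT mean in each asp1-H397A library (y axis) by mean CPM over the 6 libraries (x axis), for SPNCRNA identifiers on the left and protein-coding genes on the right. Non-coding medians lie below 0 in every bin, and coding medians of replicate 3 lie above 0 from 3 CPM upward.

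Among non-coding genes, those that fell most at 5 CPM or more were omt3, SPNCRNA.863, SPNCRNA.1344, SPNCRNA.1382 and ncRNA.1343. omt3 had 2.17, 1.78 and 2.1 CPM in asp1-H397A, against 22.3, 20 and 17.7 CPM in WT, with a log2 fold change of -3.31 ± 0.159 (SE) and an adjusted p of 6.38e-09. SPNCRNA.863 had 39.5, 40 and 71.4 CPM in asp1-H397A, against 337, 243 and 356 CPM in WT (log2 fold change -2.63). Replicate 3 was the highest of the asp1-H397A libraries. These genes were picked on condition that the groups did not overlap. The others fell by between 2.31 and 2.50 on the log2 scale. At lower levels lncRNA584 had 0, 1 and 1 counts in asp1-H397A, against 20, 11 and 15 counts in WT, and SPNCRNA.754 had 1, 1 and 1 counts in asp1-H397A, against 21, 15 and 18 counts in WT. Both passed edgeR's quasi-likelihood test, with adjusted p-values of 1.96e-04 and 5.08e-05. The asp1-H397A libraries alone had too few counts for the test. WT, where both genes were higher, had enough by itself, so their fall was in part selected.

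Non-coding genes that rose at 5 CPM or more included, beside SPNCRNA.1144, SPNCRNA.1471, with 106, 108 and 98.9 CPM in asp1-H397A, against 36.3, 38.0 and 38.0 CPM in WT (log2 fold change 1.48). It overlaps pof9 and ser2 on the opposite strand. SPNCRNA.1156 rose by 1.11, SPNCRNA.1105 by 0.97 and SPNCRNA.511 by 0.90. SPNCRNA.1156 and SPNCRNA.511 overlap oca2 and mpg1 on the same strand, so reads of these genes may be shared.

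The genes that show most plainly how replicate 3 differed, taken with no test, were those in which it lay farthest from replicates 1 and 2. It lay above them by 0.98 on the log2 scale in ntr2, 0.96 in psf2, 0.92 in rng8, 0.89 in pan5 and 0.87 in SPCC1919.07. The adenine content of these 5 genes lay between 34.2% and 39.4%. For ntr2, asp1-H397A had 17.1, 18.8 and 35.3 CPM, against 27.5, 20.2 and 24.7 CPM in WT, so the groups overlapped. It lay below them in SPAPB24D3.07c, SPBC19C7.04c, pmc1, gpd3 and rcr1, by 0.68, 0.66, 0.51, 0.48 and 0.47. For pmc1, a calcium transporter gene, asp1-H397A had 154, 164 and 112 CPM, against 91.5, 92.2 and 94.4 CPM in WT.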

How the data were processed

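Poly(A)+ RNA was sequenced in 12 libraries, 3 of each of 4 genotypes. The authors deposited raw counts per gene, with 1 column for each library. Per the submitters' processing notes the tools were HISAT2 2.1.0, SAMtools, HTSeq 0.10.0 and DESeq2, and the genome build was ASM294v2; the strand setting of the counting is not given in the sources used here. A repeated identifier with 0 counts (1 of 6987 rows) was dropped, which left 6986 genes, 320 with 0 counts in every library. No count column was left unused (0 columns). Names and transcript properties came from RefSeq on another build, ASM294v3, where 6833 genes matched by identifier and 4 by synonym, and 149 did not match. Gene order, overlaps and base composition were taken from it, and no coordinates are given.

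Genes were kept by edgeR's filterByExpr (version 4.0.16, minimum count 10), libraries were scaled by TMM with factors of 0.904 to 1.00 in asp1-H397A and 1.09 to 1.13 in WT, and all 12 entered 1 model in R 4.3.3. The contrast was tested with the quasi-likelihood test (glmQLFit, legacy option) and Benjamini-Hochberg adjustment over the 6189 genes tested, at 0.05. The SE is the size of the log2 fold change divided by the square root of F. Log2 CPM used a prior count of 2. The adenine trend was a lowess fit (span 0.3) for each library, entered as an offset. The functions were checked on simulated data.

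The genes named were the mutated genes, pho1, pho84, tgp1 and prt2, the 12 largest rises and 12 largest falls outside SPNCRNA identifiers and the 5 of each among them, at 5 CPM or more with the groups apart, up to 4 called members of each list by size, and the 5 genes on either side with the largest deviation of replicate 3 at 20 CPM or more. Further list members, pho841 and ura4 were chosen after their values were seen. The comparison, its members and the lists were chosen with earlier results of these data known. The settings varied were the scaling (RLE, upper quartile), the test (DESeq2 1.42.0), the filters, the 2 genotypes alone, the replicate block, 2 ways of removing the adenine trend, and leaving out libraries.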

Additional observations from a re-analysis of the deposited data

How the results depend on the processing

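The 2747 genes that differed were between 2259 and 3995 in 9 settings, 4537 with replicate 3 of asp1-H397A and replicate 1 of the triple mutant both left out, and 4368 in a fit of the 2 genotypes without asp1-H397A replicate 3. Leaving out 1 library at a time gave 2010 (without asp1-H397A replicate 1) to 3999 (without asp1-H397A replicate 3), with 1092 to 1948 higher and 852 to 2051 lower. Of the genes called, 58.1% were higher, but 32.2% under upper-quartile scaling (934 higher, 1966 lower), where the median of all genes moved to -0.15, and 47.6% with both of these libraries left out. In the fit of the 2 genotypes alone 2259 genes differed, 49.8% of them higher. Lower genes numbered 1952 with the adenine trend removed relative to the genotype mean, and 2377 and 2256 in the 2 settings above without replicate 3. Genes past 2-fold fell to 223, with 158 lower, at a mean count of 50 or more, which tests fewer genes. Higher non-coding genes numbered 42 under upper-quartile scaling and 102 with the adenine trend removed relative to all libraries. Called list members outside the SPNCRNA list, 334 of 676 tested beside 44.4% of all genes, became 517 and 503 in the 2 settings without replicate 3. Causes were not tested where none is given.

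With the replicate number as a block 2640 genes differed, 1522 higher and 1118 lower. Deviations of same-numbered libraries correlated at -0.13, 0.25 and 0.17, so the numbers were not taken to pair them, and asp1-H397A replicates 1 and 3 correlated best with WT libraries of another number (0.29 and 0.22).

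Of 145 named genes, 128 kept their direction and their side of the threshold in all of the 17 settings in which they were tested. With the adenine trend removed relative to all libraries, thi9 and his7 were at -0.03 and ntr2 at 0.29. With both of these libraries left out, and in the 2 genotypes without replicate 3, SPCC1919.07 was at -0.12 and -0.11 and SPBC19C7.04c at 0.13 and 0.14. Leaving out 1 library at a time gave -0.12 to 0.40 for SPCC1919.07, -0.43 to 0.15 for ntr2 and -0.17 to 0.13 for SPBC19C7.04c, whose groups overlap.

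In place of adenine content, GC content gave slopes of 0.0519, 0.0622 and 0.0249 for asp1-H397A replicates 1, 2 and 3, and of -0.0157, 0.00992 and 0.00574 for WT replicates 1, 2 and 3. Log2 length gave 0.122, 0.135 and 0.0911 for asp1-H397A replicates 1, 2 and 3, and -0.0163, 0.0136 and 0.00265 for WT replicates 1, 2 and 3. Depth limits the low genes, since 3 counts correspond to at least 0.103 CPM.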
